A study of Mus musculus with 13 samples.

Results

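A set of 10 genes that mark or direct the dendritic cell lineage was followed through RNA-Seq libraries of Lin-cKit+ BM cells. These are cells without markers of mature blood lineages that carry the receptor cKit, and hematopoietic stem and progenitor cells (HSPCs) are among them. The 10 genes were *Siglech*, *Tcf4*, *Runx2*, and *Ccr9*, linked to plasmacytoid dendritic cells (pDCs), *Id2* and *Zbtb46*, linked to conventional dendritic cells (cDCs), *Batf3*, *Clec9a*, and *Xcr1*, linked to the cDC1 subset, and *Cd209a*, linked to the cDC2 subset. They were listed by name, and all 10 were found among the 54838 genes of the count table through their Ensembl identifiers. The study asked how mutant p53 and oncogenic Nras act together in leukemia, and it sorted 50000 cells from each of 13 mice. Control mice (n = 3) carried *Mx1-Cre* alone, p53mut mice (n = 3) *Mx1-Cre* with p53 R172H/+, NrasG12D mice (n = 3) *Mx1-Cre* with Nras G12D/+, and NPmut mice (n = 4) *Mx1-Cre* with both mutant alleles. The genotype label of the NrasG12D mice reads G21D, whereas their titles read G12D. All groups thus shared *Mx1-Cre*, a recombinase transgene that interferon switches on in blood cells and in other tissues, and the mutant alleles were heterozygous at their own loci. The titles call the control, p53mut, and NrasG12D mice age-matched controls and give no age at collection. These mice were given 3 injections of 100 μg pI-pC, a synthetic RNA that induces interferon, from about 6 weeks of age. NPmut mice were given none and were moribund when their cells were taken, so that the NPmut genotype, the missing injections, and the stage of disease cannot be told apart in any comparison of NPmut mice.

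Dendritic cells take up antigen and present it to T cells. They arise in BM from progenitors that respond to FLT3 ligand, and their branches are set by transcription factors that oppose each other: TCF4, an E protein that binds E-box sequences, holds cells in the pDC branch, whereas ID2, which binds E proteins and keeps them off DNA, is needed for the cDC1 branch together with BATF3 and IRF8. pDCs are the main producers of type I interferon, cDC1s cross-present antigen to CD8+ T cells, and cDC2s present antigen to CD4+ T cells. Most of the surface receptors listed here are features of cells further along the lineage than the sorted HSPCs.

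Library totals lay between 12576174 and 29124022 counts. edgeR's filter on low counts kept 17795 genes, among them 8 of the 10 members. *Xcr1* and *Cd209a* did not pass it. Values are given as counts, as CPM (counts relative to the library total times its TMM factor), or, where genes are compared with each other, as RPKM (the same per kilobase of exons, without the TMM factor). Unless another test is named, adjusted p-values come from edgeR's quasi-likelihood test with Benjamini-Hochberg adjustment over the 17795 genes, and genes below 0.05 that changed at least 2-fold are called differentially expressed genes (DEGs). LFC stands for the log2 fold change, and fold differences are edgeR's fitted values, which need not equal the ratio of the mean CPM. *Nras* and *Trp53* were not DEGs in NPmut against control mice (LFC -0.14, adjusted p = 0.379 for *Nras*, and LFC -0.28, adjusted p = 0.103 for *Trp53*), and gene counts do not separate mutant from WT alleles. To look at the sort, 10 HSPC markers, *Kit* included, all of them tested, were summed. Their level was 2510 to 2945 CPM in control, 2691 to 3154 in p53mut, 3045 to 3419 in NrasG12D, and 2183 to 2601 CPM in NPmut mice. Every NPmut mouse thus lay below every single-mutant mouse but overlapped with control mice. The sum does not show the level of *Kit* alone. Background was read from 1461 olfactory and vomeronasal receptor genes, which together came to 142 ± 44.7 CPM of the unscaled totals (SD, n = 3) in control, 98.8 ± 39.4 (n = 3) in p53mut, 41.4 ± 3.33 (n = 3) in NrasG12D, and 34.7 ± 20.3 (n = 4) in NPmut libraries.

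The promoters of the 4 members that were DEGs in NPmut mice are shown because TCF4 and ID2 act, respectively, on and against E-boxes. They are RefSeq sequences on GRCm38.p6, 300 bases long, from 250 bases before to 50 bases after the transcription start, written 5′ to 3′ on the gene's own strand, with each E-box (CANNTG, which reads the same on both strands) in capitals. The genes lie at chr7:55768178-55778925 (*Siglech*), chr6:129408862-129424763 (*Clec9a*), chr12:25093799-25097140 (*Id2*), and chr2:181387762-181459426 (*Zbtb46*), and the windows at chr7:55767934-55768233 (+) for *Siglech*, chr6:129408612-129408911 (+) for *Clec9a*, chr12:25096043-25096342 (-) for *Id2*, and chr2:181424339-181424638 (-) for *Zbtb46*. The *Id2* and *Zbtb46* windows start from RefSeq starts downstream of the outermost GENCODE start and lie wholly inside the annotated gene.
*Siglech*: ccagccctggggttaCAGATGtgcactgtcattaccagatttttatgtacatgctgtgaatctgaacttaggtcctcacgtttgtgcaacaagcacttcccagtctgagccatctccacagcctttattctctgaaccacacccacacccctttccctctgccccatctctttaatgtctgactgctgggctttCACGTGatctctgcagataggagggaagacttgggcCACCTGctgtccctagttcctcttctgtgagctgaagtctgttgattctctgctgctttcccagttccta
*Clec9a*: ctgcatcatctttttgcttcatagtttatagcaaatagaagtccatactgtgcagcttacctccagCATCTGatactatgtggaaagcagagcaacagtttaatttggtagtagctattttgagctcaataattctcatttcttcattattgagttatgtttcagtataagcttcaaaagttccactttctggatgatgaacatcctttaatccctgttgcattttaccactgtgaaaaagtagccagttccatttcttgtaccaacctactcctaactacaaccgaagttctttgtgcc
*Id2*: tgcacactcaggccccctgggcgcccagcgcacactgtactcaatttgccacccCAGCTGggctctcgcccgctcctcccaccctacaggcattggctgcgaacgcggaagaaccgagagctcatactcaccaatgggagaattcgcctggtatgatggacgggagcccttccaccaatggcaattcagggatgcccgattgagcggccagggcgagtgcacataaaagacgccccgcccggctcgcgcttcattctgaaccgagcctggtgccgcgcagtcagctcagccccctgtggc
*Zbtb46*: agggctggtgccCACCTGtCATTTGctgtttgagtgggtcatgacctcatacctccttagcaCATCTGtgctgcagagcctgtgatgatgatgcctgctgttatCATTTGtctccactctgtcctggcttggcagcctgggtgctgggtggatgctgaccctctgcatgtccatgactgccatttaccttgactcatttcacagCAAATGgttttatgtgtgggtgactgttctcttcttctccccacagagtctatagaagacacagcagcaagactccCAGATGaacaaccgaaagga

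E-boxes were present in the promoters of 9 of the 9 members with an entry in the promoter table, but 72.3% of all 32851 promoters hold one. *Zbtb46* had 6, *Siglech* 3, and *Clec9a* and *Id2* had 1 each. The narrower form CAGGTG, which E proteins prefer and which is itself an E-box, was found on either strand in 3 of the 9 (*Siglech*, *Zbtb46*, and *Ccr9*) and in 20.2% of all promoters. In *Siglech* it began 20 bases before the start, as the CACCTG in the sequence above, and in *Zbtb46* 238 bases before it, in the same orientation. The RUNX motif TGTGGT was in the promoters of *Siglech* and *Runx2* (16.8% of all promoters), the AP-1 motif TGANTCA in that of *Zbtb46* (7.81%), and the ETS-IRF composite motif (GGAA, any 2 bases, GAAA) in that of *Cd209a* (2.72%), whereas the interferon-response type (GAAA, any 2 bases, GAAA) was in 0 of 9 (3.44%). These motifs were also searched on both strands, and none contains an E-box. *Tcf4* has no entry.

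In control cells, 4 of the 5 transcriptional regulators had higher levels per length than the surface receptors and *Batf3*. *Runx2* had the highest mean, 10.1 ± 1.5 RPKM (SD, n = 3), followed by *Tcf4* at 3.15 ± 0.397, *Zbtb46* at 2.54 ± 0.649, and *Id2* at 1.37 ± 0.373. The ranges of *Tcf4* and *Zbtb46* overlapped, whereas *Runx2* lay above both and *Id2* below both. The other 6 members were at or under 0.221 RPKM in control cells: *Clec9a* had 0.221 ± 0.0956, *Batf3* 0.177 ± 0.140, *Cd209a* 0.0842 ± 0.0766, *Ccr9* 0.0728 ± 0.0595, *Xcr1* 0.0633 ± 0.0447, and *Siglech* 0.0613 ± 0.0533, and each of these overlapped its neighbors in the order. RPKM here divide by all annotated exons of a gene, which lowers the value of genes with many alternative exons such as *Tcf4*.

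In NPmut cells the order differed. *Runx2* was still highest at 11.9 ± 3.95 RPKM (SD, n = 4), but *Id2* came next at 5.67 ± 1.75, above *Tcf4* at 2.92 ± 0.726, and *Clec9a* at 1.68 ± 0.536 stood above *Zbtb46* at 1.12 ± 0.436. The ranges of *Runx2* and *Id2*, of *Id2* and *Tcf4*, and of *Clec9a* and *Zbtb46* overlapped. *Batf3* had 0.677 ± 0.435, *Siglech* 0.662 ± 0.0846, *Ccr9* 0.338 ± 0.349, *Cd209a* 0.144 ± 0.0866, and *Xcr1* 0.0960 ± 0.119 RPKM.

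Compared with control cells, NPmut cells had more RNA of the pDC receptor *Siglech*, the cDC1 receptor *Clec9a*, and the E protein inhibitor *Id2*, and less of the cDC transcription factor *Zbtb46*, while *Tcf4* was at 82.9 CPM in both. Of the 8 members tested, 3 were DEGs higher and 1 was lower in NPmut cells, against 2.32% higher and 3.69% lower (413 and 656 genes, 6.01% in all) among the 17795 genes. When libraries were scaled by their totals alone, the split over all genes was 310 higher and 788 lower and the median LFC of all genes -0.11, and 4 members were again called. The median LFC was 2.13 over the 8 members and 0.01 over all genes tested. NPmut and control mice did not overlap for these 4 DEGs, 3 above and 1 below, against 22% of all genes (10.6% above and 11.4% below). *Siglech* and *Batf3* passed the filter on low counts through the NPmut libraries, where they are high. Fits to control and p53mut or control and NrasG12D libraries alone did not keep them. The member counts and median thus lean upward in every comparison of NPmut mice. Requiring at least 10 counts in every library left *Tcf4*, *Runx2*, *Zbtb46*, and *Id2* to test. In BM cells sequenced in bulk, fewer cells of a type and less RNA per cell cannot be told apart.

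**Figure D1:**
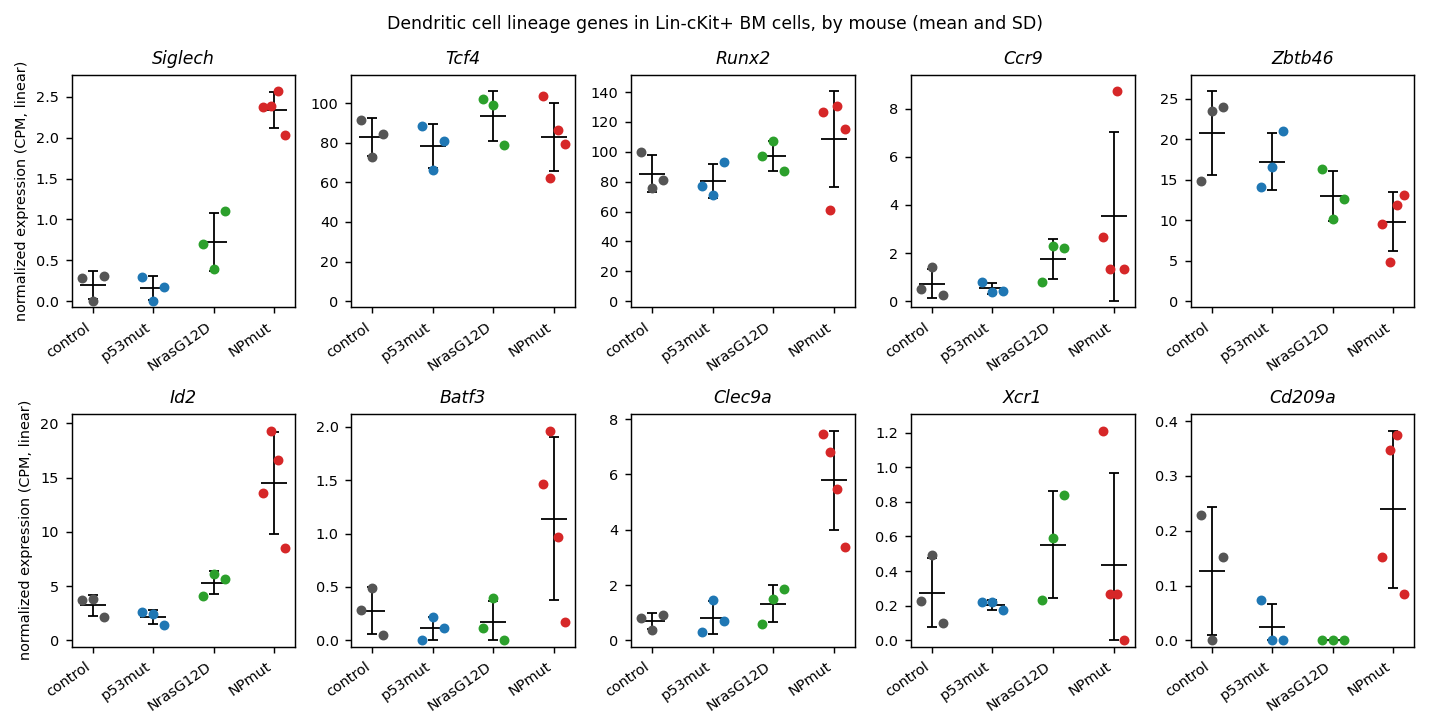
Normalized expression (CPM, linear axes with their own scale in each panel) of the 10 members. Each point is a mouse of the control, p53mut, NrasG12D, or NPmut group, with the group mean as a horizontal line and the SD as a vertical bar drawn down to 0 at most. The 4 NPmut mice lie at 2.03 to 2.57 CPM for *Siglech*, 8.47 to 19.3 for *Id2*, and 3.39 to 7.47 for *Clec9a*, above every other mouse, whereas *Tcf4* and *Runx2* overlap between groups.

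*Siglech* encodes a sialic acid-binding receptor used to identify mouse pDCs. It had 5, 0, and 6 counts in control mice 1 to 3, 4, 0, and 3 in p53mut mice, 12, 6, and 17 in NrasG12D mice, and 47, 62, 48, and 24 in NPmut mice 1 to 4. In CPM these were 0.287, 0, and 0.305 in control mice and 2.37, 2.39, 2.57, and 2.03 in NPmut mice. Every NPmut mouse was above every other mouse, and the NPmut mice differed little among themselves (2.34 ± 0.224 CPM, SD, n = 4), against 0.197 ± 0.171 in control mice (n = 3). The fitted difference was 11.2-fold (LFC 3.49, SE 0.697, adjusted p = 0.00570). A count of 0 in control mouse 2 allows up to 3 counts, which is 0.185 CPM there, counting error only. Background reads, spread by exonic length, would give 1.18 to 1.91 counts of *Siglech* in each control library, 40.8% of the 11 counts seen, but 1.03% of the 181 counts in NPmut libraries. With that background subtracted the LFC was 3.74 (adjusted p = 0.00411).

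*Ccr9*, the receptor for the chemokine CCL25 and a marker of mature pDCs, was uneven. It had 0.516, 1.41, and 0.254 CPM in control mice, 0.810, 0.368, and 0.405 in p53mut mice, 0.809, 2.29, and 2.20 in NrasG12D mice, and 2.68, 1.35, 8.73, and 1.36 in NPmut mice. NPmut mouse 3, with 163 counts, stood above all others, and control mouse 2 lay above NPmut mice 2 and 4. The LFC against control was 2.29 (SE 0.740, adjusted p = 0.0623), which did not pass the threshold. It passed with DESeq2 (adjusted p = 0.0135), without the filter on low counts (4.17e-05), without control mouse 2 (LFC 3.19, adjusted p = 0.0487), without NPmut mouse 2 (2.57, adjusted p = 0.0355), and without NPmut mouse 4 (2.54, adjusted p = 0.0376), but was 1.31 (adjusted p = 0.189) without NPmut mouse 3. Of the exonic bases of *Ccr9*, 18.8% overlap AC165425.1 on the opposite strand and 2.62% the lincRNA Gm17200 on the same strand, and the strand setting of the counting is not given in the sources used here, so that the reads of these genes may be shared.

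*Tcf4*, the E protein that directs pDC development, had 91.6, 72.9, and 84.2 CPM in control mice and 103, 62.2, 86.5, and 79.6 in NPmut mice. The groups overlapped fully and their means were the same to 3 digits, 82.9 ± 9.42 (SD, n = 3) and 82.9 ± 17.1 (n = 4). The LFC was -0.00 (SE 0.159, 95% interval -0.34 to 0.34, adjusted p = 0.992). This interval excludes a 2-fold change in either direction. *Runx2*, which acts in pDC maturation and in bone formation, had 99.6, 75.4, and 81.3 CPM in control mice and 126, 61.2, 131, and 115 in NPmut mice. NPmut mouse 2 lay below every control mouse and the other 3 above them. The LFC was 0.34 (SE 0.209, 95% interval -0.11 to 0.79, adjusted p = 0.338), and 0.53 (adjusted p = 0.0105), under 2-fold, without NPmut mouse 2. Of the exonic bases of *Runx2*, 5.87% overlap the antisense gene Runx2os1.

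*Id2* was the member with the smallest adjusted p-value. Its counts were 65, 62, and 42 in control mice, 36, 33, and 25 in p53mut mice, 71, 94, and 88 in NrasG12D mice, and 269, 502, 311, and 100 in NPmut mice. In CPM, control mice had 3.73, 3.82, and 2.14, p53mut mice 2.65, 2.43, and 1.45, NrasG12D mice 4.10, 6.15, and 5.69, and NPmut mice 13.6, 19.3, 16.7, and 8.47. All NPmut mice were above all NrasG12D mice, which in turn were above all control mice. The difference between NPmut (14.5 ± 4.66, SD, n = 4) and control mice (3.23 ± 0.945, n = 3) was 4.51-fold (LFC 2.17, SE 0.320, adjusted p = 0.000894).

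*Zbtb46*, a transcription factor that marks committed cDC precursors and is also expressed by erythroid progenitors and endothelial cells, went the other way. It had 14.8, 23.5, and 24.0 CPM in control mice, 14.1, 16.5, and 21 in p53mut mice, 16.3, 10.1, and 12.7 in NrasG12D mice, and 9.54, 4.78, 11.9, and 13.1 in NPmut mice. Every NPmut mouse was below every control mouse, although NPmut mouse 4 and control mouse 1 were close. It fell by 1.09 on the log2 scale (2.13-fold lower, SE 0.291, adjusted p = 0.0265). The call was lost without control mouse 2 (adjusted p = 0.0942), control mouse 3 (0.113), or NPmut mouse 1 (0.0605), without NPmut mouse 2, where the LFC of -0.86 (adjusted p = 0.0210) was under 2-fold, and with only the NPmut and control libraries in the fit (0.0869). Of 9 erythroid markers, 3 were DEGs lower (0 without control mouse 2, control mouse 3, or NPmut mouse 1, and 1 without control mouse 1), and their summed level was 855 to 1207 CPM in control and 327 to 726 CPM in NPmut mice. Calls over all genes were also fewer in these fits. They ran from 217 higher and 369 lower (without control mouse 3) to 330 and 500 (without NPmut mouse 1), against 413 and 656 in the main fit. Of 8 endothelial markers, 6 were tested and 5 were DEGs lower (3 without control mouse 3). The other one tested, *Pecam1*, an adhesion molecule of endothelial and blood cells, passed in the other direction with under 2-fold (LFC 0.65, adjusted p = 0.00211) and made up most of the summed level of 134 to 175 CPM in control and 132 to 166 CPM in NPmut mice, at 75.7 to 98.1 and 124 to 153 CPM. The part of these cells in the *Zbtb46* values was not tested.

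*Clec9a*, a receptor by which cDC1s sense dead cells and which also appears on dendritic cell progenitors, had 14, 6, and 18 counts in control mice, 4, 20, and 12 in p53mut mice, 10, 23, and 29 in NrasG12D mice, and 148, 177, 102, and 40 in NPmut mice. In CPM, control mice had 0.802, 0.369, and 0.915 and NPmut mice 7.47, 6.82, 5.46, and 3.39. The lowest NPmut mouse was above the highest mouse of any other group. The means were 5.78 ± 1.80 (SD, n = 4) and 0.696 ± 0.288 CPM (n = 3), and the fitted difference was 8.19-fold (LFC 3.03, SE 0.527, adjusted p = 0.00240). *Clec9a* shares 5.59% of its exonic bases with the neighboring *Clec1b* on the same strand, and *Clec1b* was at 0.594 ± 0.318 CPM in control and 0.308 ± 0.0994 CPM in NPmut mice (LFC -0.89, adjusted p = 0.338).

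The other cDC1 members did not pass the threshold. *Batf3*, the transcription factor that cDC1s depend on, had 5, 8, and 1 counts in control mice, 0, 3, and 2 in p53mut mice, 2, 6, and 0 in NrasG12D mice, and 29, 51, 18, and 2 in NPmut mice. NPmut mice 1 to 3 were above all other mice, and NPmut mouse 4, which has the smallest library, lay among the controls. The LFC was 2.09 (SE 0.893, 95% interval 0.18 to 3.99, adjusted p = 0.154), and 2.41 (adjusted p = 0.0698) without NPmut mouse 4. It passed without the filter on low counts (adjusted p = 0.0478) and with the replicate number as a block (0.0268). NPmut mouse 4 alone had its number, so that block in effect left it out of the group differences. *Xcr1*, the receptor for the chemokine XCL1, had 4, 8, and 2 counts in control mice, 3 in each p53mut mouse, 4, 9, and 13 in NrasG12D mice, and 24, 7, 5, and 0 in NPmut mice. Only NPmut mouse 1 was above the range of the other groups. The means of 0.437 ± 0.531 (SD, n = 4) and 0.274 ± 0.199 CPM (n = 3) gave p = 0.83 in a two-sided exact permutation test, and a difference was not detectable at this depth. The smallest p-value that 4 against 3 mice allow is 0.0286.

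*Cd209a*, the lectin DC-SIGN of cDC2s and monocyte-derived cells, was the member with the fewest counts. It had 4, 0, and 3 counts in control mice, 1, 0, and 0 in p53mut mice, 0 in each NrasG12D mouse, and 3, 9, 7, and 1 in NPmut mice. NPmut mice overlapped with control mice (0.239 ± 0.143 against 0.127 ± 0.117 CPM, two-sided exact permutation test, p = 0.286) and, in CPM, lay above the mice of the single-mutant groups, although NPmut mouse 4 and p53mut mouse 1 had 1 count each. Against either single-mutant group the exact permutation p was 0.0571, so that no difference passed. The count of 0 in the NrasG12D libraries allows up to 3 counts in each, 0.173 to 0.196 CPM, which is more than NPmut mice 1 and 4 had.

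**Figure D2:**
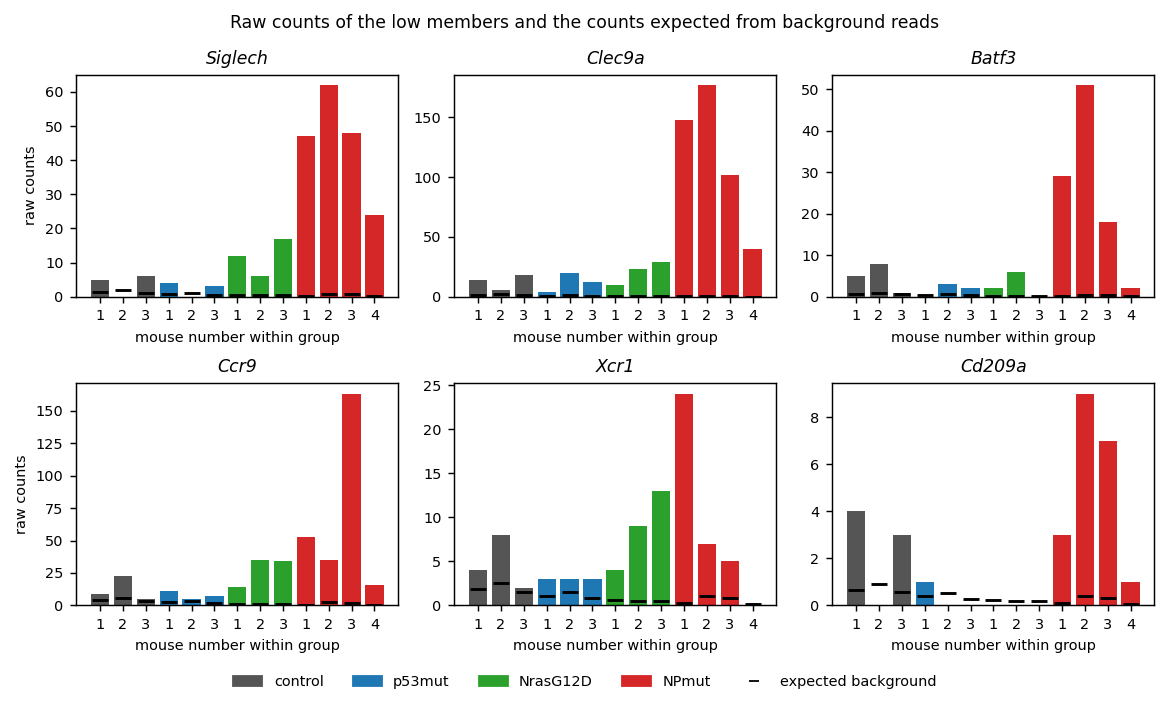
Raw counts (linear axes from 0) of the 6 members with few counts, by mouse number within the control, p53mut, NrasG12D, and NPmut groups. Bars are the counts seen and black dashes the counts expected from background reads given a gene's exonic length. Background comes to 40.8% of the *Siglech*, 42.2% of the *Xcr1*, 36.8% of the *Ccr9*, 30.0% of the *Cd209a*, 15.1% of the *Batf3*, and 11.5% of the *Clec9a* counts in control libraries, and to at most 6.84% for each of them in NPmut libraries.

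The background reads were most abundant in control libraries, which raises the control level of members with few counts. With the expected background subtracted from every gene, the number of member DEGs in NPmut against control mice was again 4, 3 higher and 1 lower. Over all 17515 genes of that fit, 417 were called higher and 542 lower. *Clec9a* then had an LFC of 3.18 (adjusted p = 0.00337), *Ccr9* of 2.91 (adjusted p = 0.0541), and *Batf3* of 2.40 (adjusted p = 0.146).

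In p53mut cells, 0 of the 8 tested members were DEGs against control cells, and 0% of all genes were. At an unadjusted p under 0.05, 0 members and 415 of all genes were found. DESeq2 also called 0 members, and over all genes it called 1 higher and 2 lower. A fit to the control and p53mut libraries alone with the mouse number as a block tested 5 members and called 0 of them, with 4 genes higher and 21 lower called of 16685. Member LFCs ran from -1.21 (*Batf3*) to 0.21 (*Clec9a*), with a median of -0.31 against 0.00 for all genes, and each had an adjusted p of 0.9998. *Siglech* had 0.156 ± 0.148 CPM in p53mut and 0.197 ± 0.171 in control mice (SD, n = 3 each), and *Id2* had 2.17 ± 0.641 and 3.23 ± 0.945. The intervals were wide for the members with few counts (for *Siglech*, -2.27 to 1.56 on the log2 scale) and narrow for *Tcf4* (-0.45 to 0.28) and *Runx2* (-0.57 to 0.39). No member separated the groups, against 11.2% of all genes.

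In NrasG12D cells, 0 of the 8 members were DEGs against control cells, with 0.00562% of all genes (1 gene) called. DESeq2 also called 0 members, while over all 17795 genes it called 46 higher and 31 lower. At an unadjusted p under 0.05, 3 members and 1642 of all genes were found. These were *Siglech* (0.728 ± 0.355 against 0.197 ± 0.171 CPM, LFC 1.81, SE 0.746, adjusted p = 0.467), *Id2* (5.31 ± 1.07 against 3.23 ± 0.945, 0.72, SE 0.331, adjusted p = 0.532), and *Zbtb46* (13 ± 3.10 against 20.8 ± 5.15, -0.67, SE 0.313, adjusted p = 0.539). *Siglech* and *Id2* separated the groups, with all 3 NrasG12D above all 3 control mice, against 21.1% of all genes in either direction and 11% above. *Ccr9* had an LFC of 1.28 (adjusted p = 0.680) and *Clec9a* of 0.89 (adjusted p = 0.689), and *Tcf4* and *Runx2* of 0.17 and 0.18.

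**Figure D3:**
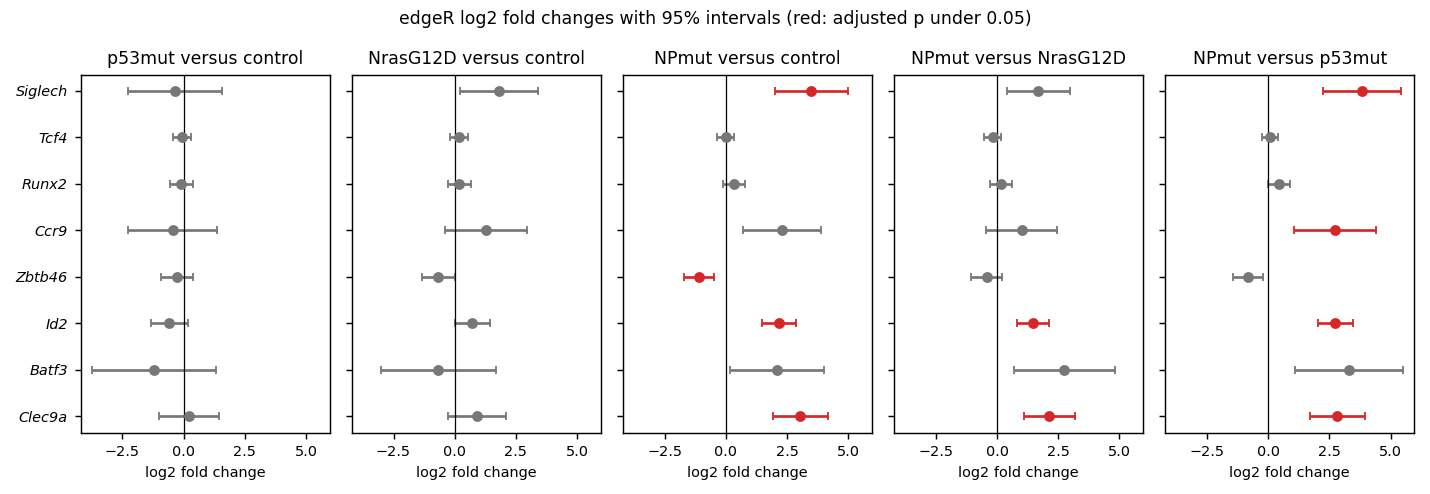
Log2 fold changes (LFC, horizontal axis, shared scale) of the 8 tested members in each of 5 comparisons. Points are edgeR estimates, bars 95% intervals, and red marks an adjusted p under 0.05. In NPmut against control mice *Siglech* (3.49), *Clec9a* (3.03), and *Id2* (2.17) lie to the right and *Zbtb46* (-1.09) to the left of 0, and no member is marked in p53mut or NrasG12D against control mice.

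Against NrasG12D cells, NPmut cells had 2 member DEGs, both higher, with 4.41% of all genes called and 1.81% called higher. *Id2* was 2.74-fold higher (14.5 ± 4.66 against 5.31 ± 1.07 CPM, LFC 1.45, SE 0.308, adjusted p = 0.00932), and *Clec9a* 4.41-fold (5.78 ± 1.80 against 1.32 ± 0.668 CPM, 2.14, SE 0.497, adjusted p = 0.0152). Both calls were lost without NrasG12D mouse 1 (adjusted p = 0.0592 and 0.0787), and that of *Clec9a* without NrasG12D mouse 2 (0.0561). *Siglech* was higher in each NPmut mouse than in each NrasG12D mouse, yet its LFC 1.68 (SE 0.603) had an adjusted p of 0.100, and 0.0145 with DESeq2. *Batf3* had 2.75 (SE 0.964, adjusted p = 0.0913), and 3.07 (adjusted p = 0.0419) without NPmut mouse 4. The 2 groups did not overlap for 3 of the 8 tested members, all with NPmut above (*Siglech*, *Id2*, and *Clec9a*), against 20.5% of all genes in either direction and 9.34% above.

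Against p53mut cells, NPmut cells had 4 member DEGs, all higher, with 5.24% of all genes called and 2.15% called higher. *Id2* was 6.73-fold higher (14.5 ± 4.66 against 2.17 ± 0.641 CPM, LFC 2.75, SE 0.336, adjusted p = 0.000330). *Siglech* was 14.3-fold (3.84, SE 0.742, adjusted p = 0.00481) and *Clec9a* 7.07-fold higher (2.82, SE 0.526, adjusted p = 0.00389). *Ccr9* was 6.68-fold higher (3.53 ± 3.52 against 0.527 ± 0.245 CPM, 2.74, SE 0.781, adjusted p = 0.0393), a call that was lost in 8 of 13 fits with a mouse removed. These were the fits without control mouse 1 (adjusted p = 0.0525), p53mut mouse 1 (0.0834), 2 (0.120), or 3 (0.163), NrasG12D mouse 2 (0.0503) or 3 (0.0538), and NPmut mouse 1 (0.0572) or 3 (LFC 1.77, 0.0948). *Zbtb46* lay below every p53mut mouse in every NPmut mouse, but its LFC -0.83 had an adjusted p of 0.0929. With the replicate number as a block, *Zbtb46* (-1.02, adjusted p = 0.0335) and *Batf3* (3.69, adjusted p = 0.0106) passed as well, making 6 calls. That fit called 398 genes higher and 623 lower of 17795. In it, NPmut mouse 4 was the only mouse of its number and was in effect left out of the group differences. *Batf3* also passed without NPmut mouse 4 (3.62, adjusted p = 0.0263), and *Runx2*, under 2-fold, without NPmut mouse 2 (0.62, adjusted p = 0.00445). NPmut mice were above p53mut mice without overlap for 4 of the 8 tested members (9.14% of all genes) and below for 1 (10.4%), with 19.6% of all genes apart in either direction.

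The change with both alleles was then set against the sum of the changes with each allele alone, as an interaction on the log2 scale. *Id2* was the only member of 8 to pass, with 1.34% of all genes called and 0.405% called in the higher direction. Its LFCs were -0.58 in p53mut and 0.72 in NrasG12D against control mice, whose sum the 2.17 in NPmut mice exceeded by 2.03 (SE 0.462, 95% interval 1.04 to 3.02, adjusted p = 0.0417). The call was lost in 8 of 13 fits with a mouse removed. These were the fits without control mouse 1 (adjusted p = 0.102) or 2 (0.130), p53mut mouse 1 (0.0856) or 3 (0.123), NrasG12D mouse 1 (0.106), 2 (0.0921), or 3 (0.0785), and NPmut mouse 1 (0.0619). *Batf3* (3.97, SE 1.53, adjusted p = 0.213), *Siglech* (2.03, SE 1.09, adjusted p = 0.382), and *Clec9a* (1.93, SE 0.759, adjusted p = 0.223) did not pass, and *Tcf4* (-0.09), *Runx2* (0.25), and *Zbtb46* (-0.15) had interactions near 0. The interaction rests on mice of which the NPmut group alone lacked pI-pC.

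Among the NPmut mice themselves the members did not rank alike. NPmut mouse 2 had the highest *Id2* and *Batf3* and the lowest *Tcf4*, *Runx2*, and *Zbtb46*, NPmut mouse 3 the highest *Ccr9* and *Siglech*, and NPmut mouse 4 the lowest *Siglech*, *Id2*, *Clec9a*, *Batf3*, *Xcr1*, and *Cd209a* together with the highest *Zbtb46*. NPmut mouse 2 has the deepest and NPmut mouse 4 the shallowest library of the 13. Over the 13 libraries, which share group differences as well as depth, *Id2* varied with *Clec9a* (Pearson r = 0.852, Spearman rho = 0.753) and *Siglech* (0.830 and 0.846) and against *Zbtb46* (-0.813 and -0.863). *Tcf4* varied with *Runx2* (0.727 and 0.687) and not with *Id2* (-0.0060 and 0.055). These correlations are descriptions over pooled groups, without a test.

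Other genes of the dendritic cell branches, without the 10 members, were then counted in NPmut against control mice. They were listed from general knowledge, with earlier results of these data known. The paper had already reported *Irf8*, *Klf4*, *Cd74*, and *Csf1r* as higher in NPmut cells, so the counts of these lists are no independent support. Of the 25 further pDC genes, 18 were tested, and 4 were DEGs higher and 1 was lower. Higher were *Irf8*, a factor that pDCs and cDC1s both need (484 ± 96.1 against 134 ± 5.33 CPM, LFC 1.85, adjusted p = 0.000440), *Tlr9*, the receptor for unmethylated DNA (1.76, adjusted p = 0.0187), and *Dntt*, the DNA polymerase TdT of lymphoid progenitors and some pDCs (1.55, adjusted p = 0.0292). Lower was *Irf7*, an interferon-induced factor that pDCs use to make interferon (5.21 ± 0.993 against 10.5 ± 3.71 CPM, -1.0, adjusted p = 0.0366). *Irf7* was at 32.0 ± 5.54 CPM in NrasG12D mice. The median of the 18 was 0.42. The count of 5 was 1 with control mouse 3 removed and 3 with control mouse 2 or NPmut mouse 2 removed. Fewer genes were called over all in these fits as well. They were 217 higher and 369 lower without control mouse 3, 294 and 483 without control mouse 2, and 342 and 546 without NPmut mouse 2. The main fit called 413 and 656.

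Of 20 further cDC1 genes, 19 were tested, and 4 were DEGs higher and 1 was lower (median 0.57). They included *Nfil3*, a factor upstream of cDC1 commitment (24.3 ± 7.60 against 6.77 ± 0.698 CPM, LFC 1.84, adjusted p = 0.000653), *Naaa*, a lysosomal amidase (1.5, adjusted p = 0.0253), and, lower, *Clnk*, an adaptor protein of immune receptors (-1.64, adjusted p = 0.00324). Of 20 cDC2 genes, 18 were tested, and 5 were DEGs higher and 1 was lower (median 0.45). *Klf4*, a factor of cDC2 and monocyte development, rose from 5.71 ± 1.71 to 41.4 ± 13.9 CPM (2.85, adjusted p = 0.0103), *Gpr183*, an oxysterol receptor that positions cDC2s, had an LFC of 2.81 (adjusted p = 0.00166), and *Clec4a2*, an inhibitory lectin, of 1.94 (adjusted p = 0.0460). The count of 6 cDC2 genes was 2 with control mouse 3 removed and 3 with control mouse 2 removed, whereas 4 or 5 cDC1 genes were called with any control or NPmut mouse removed. Without control mouse 3 or 2, fewer genes were called over all as well, as given above.

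Of 20 genes shared by dendritic cells and their progenitors, 17 were tested, 12 were DEGs higher and 0 lower, and the median was 1.43 against 0.01 over all genes. Among them were the MHC class II genes *H2-Aa* (21.7 ± 10.1 against 2.90 ± 0.683 CPM, LFC 2.91, adjusted p = 0.000530) and *H2-Eb1* (2.64, adjusted p = 0.000268) and the invariant chain *Cd74* (58.4 ± 27.1 against 7.93 ± 2.14 CPM, 2.88, adjusted p = 0.00159). *Flt3*, the receptor through which dendritic cell progenitors are sustained, rose from 71.6 ± 24.1 to 159 ± 66.5 CPM (1.15, adjusted p = 0.0336). The count of 12 was 7 without control mouse 3 and 7 without NPmut mouse 1. MHC class II genes, *Csf1r*, and *Ccr2* of this list are also expressed by B cells or monocytes. Among 28 regulators of dendritic cell development, which share *Irf8*, *Nfil3*, *Klf4*, *Flt3*, and others with the lists above, 26 were tested and 8 were DEGs, all higher (median 0.13). That count was 2 without control mouse 3, 4 without control mouse 1 or NPmut mouse 1, and 5 without control mouse 2. Fewer genes were called over all in these fits too. They were 217 higher and 369 lower without control mouse 3, and 321 and 457 without control mouse 1. Without NPmut mouse 1 they were 330 and 500, and without control mouse 2 294 and 483. Of 15 genes of activated dendritic cells, 9 were tested and 0 were DEGs, although 5 had an unadjusted p under 0.05, DESeq2 called 1, and 2 were DEGs without NPmut mouse 3. Over all 17795 genes, 4561 had an unadjusted p under 0.05. DESeq2 called 498 of all genes higher and 825 lower, and the fit without NPmut mouse 3 called 494 and 758. The main fit called 413 and 656. *Birc3*, an inhibitor of apoptosis, passed with under 2-fold (0.88, adjusted p = 0.00155).

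**Figure D4:**
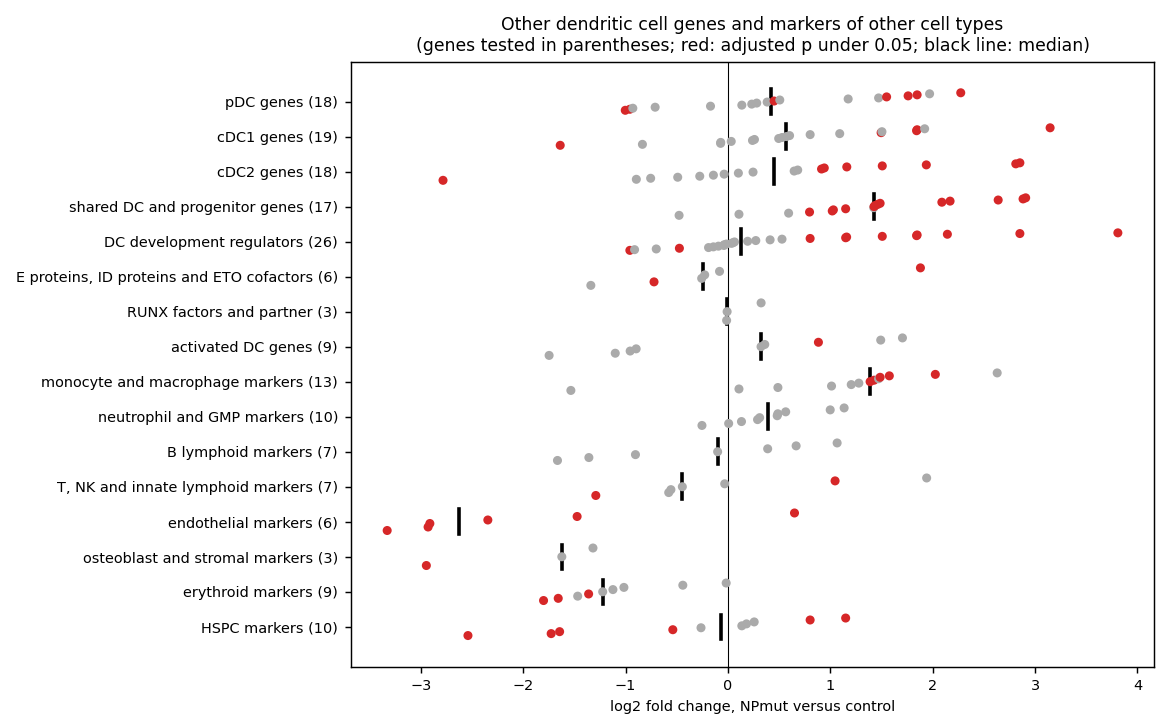
Log2 fold changes in NPmut against control mice (horizontal axis) of the genes tested in 16 lists, with the number tested in parentheses. Each point is a gene, red marks an adjusted p under 0.05, and a black line marks the list's median. The list of shared dendritic cell and progenitor genes has its median at 1.43 and that of endothelial markers at -2.63, whereas the E protein and RUNX lists lie at -0.24 and -0.01.

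The partners of *Tcf4*, *Id2*, and *Runx2* were given as whole families. Of 8 E proteins, ID proteins, and ETO cofactors, 6 were tested and 1 was a DEG, *Id1*, a close relative of *Id2* (4.88 ± 1.92 against 1.32 ± 0.403 CPM, LFC 1.88, SE 0.367, adjusted p = 0.00505). The count was 2 without p53mut mouse 1, 2, or 3 or NrasG12D mouse 1 or 2. *Cbfa2t3*, an ETO corepressor that works with TCF4 in pDCs, fell from 179 ± 18.8 to 109 ± 27.4 CPM (-0.72, SE 0.172, adjusted p = 0.0152), under 2-fold. The E proteins *Tcf3* (-0.08, adjusted p = 0.704) and *Tcf12* (-0.26, adjusted p = 0.147) did not pass, nor did the ETO genes *Cbfa2t2* (-0.23, adjusted p = 0.348) and *Runx1t1* (-1.34, adjusted p = 0.299), and *Id3* and *Id4* had too few counts to be tested. The RUNX factors *Runx1* (-0.01, adjusted p = 0.980) and *Runx3* (-0.01, adjusted p = 0.964) and their partner *Cbfb* (0.32, adjusted p = 0.108) did not pass either.

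Markers of other cells that the sort could hold moved in several directions beside the dendritic cell genes. Of 14 monocyte and macrophage markers, 13 were tested and 5 were DEGs higher, among them *Ms4a6c* (LFC 2.03, adjusted p = 0.00130), *F13a1* (1.58, adjusted p = 0.000877), and *Csf1r* (1.49, adjusted p = 0.00240), and the summed level was 617 to 712 CPM in control and 1507 to 2578 CPM in NPmut mice without overlap. DESeq2 called 8 of them, and 9 were DEGs without NPmut mouse 3. More genes were called in general there, 498 higher and 825 lower with DESeq2 and 494 and 758 without NPmut mouse 3. The main fit called 413 and 656. Monocytes and dendritic cells share progenitors and many genes, and the part of monocyte-lineage cells in the member values was not tested. The other lists with calls were T, NK, and innate lymphoid markers (1 higher, *Tcf7*, 1.05, and 1 lower, *Gata3*, -1.29, of 7 tested), endothelial markers (5 lower of 6, such as *Tie1*, -3.33, *Vwf*, -2.93, and *Plvap*, -1.47), osteoblast and stromal markers (1 lower of 3), erythroid markers (*Gata1*, -1.80, *Klf1*, -1.66, and *Car2*, -1.36, all 3 lower of 9), and HSPC markers (1 higher, *Flt3*, and 3 lower, such as *Meis1*, -1.73, and *Gata2*, -1.64, of 10). Of these calls, the T, NK, and innate lymphoid count of 2 was 0 with control mouse 2, control mouse 3, or NPmut mouse 3 removed and 1 with control mouse 1, NrasG12D mouse 1, or NPmut mouse 1 removed, and the HSPC count of 4 was 1 with control mouse 3 and 2 with NPmut mouse 1 removed. The fits without a control mouse or NPmut mouse 1 called fewer genes over all than the main fit, and that without NPmut mouse 3 more. The osteoblast and stromal count of 1 was 2 with p53mut mouse 2 removed. Of 10 neutrophil and 7 B lymphoid markers tested, 0 were DEGs, with DESeq2 as well. All genes in the 16 lists had counts in some library.

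For each DEG among the members, the genes most like it over the 13 libraries were taken by Pearson correlation of log2 CPM. Nearest to *Siglech* were *Plekha1* (r = 0.937), Gm6475 (0.916), and *Pecam1* (0.914). *Id2* was followed by *Hes6* (0.958), *Ighm* (0.958), and *Dhrs3* (0.950), and *Clec9a* by *Slc2a6* (0.973) and *Tagap* (0.956). These 8 genes passed the test in NPmut against control mice with LFCs from 0.65 (*Pecam1*) to 2.24 (*Slc2a6*). They were picked for likeness to member DEGs over libraries that hold the same group difference, so their passing is no separate support. Nearest to *Zbtb46* were *Cldn13* (0.978), *Nxpe2* (0.973), and *Lmna* (0.967), with LFC -1.19 (adjusted p = 0.109), -1.26 (0.118), and -1.25 (0.0572).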

How the data were processed

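The data were RNA-Seq read counts of Lin-cKit+ BM cells from 13 mice. The authors deposited raw counts per gene, whole numbers for 54838 Ensembl identifiers with a column per mouse; 0 columns were left without a sample. The submitters' processing notes name STAR 2.6.1d, R 3.6.1, DESeq2 1.26.0, and GRCm38.p6. The counting program, annotation, and strand setting are not given in the sources used here. Identifiers were matched to GENCODE M21 (54809 found, 29 not), which also gave exonic lengths. Promoters came from RefSeq.

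Counts were fitted in R 4.3.3 with edgeR 4.0.16 (TMM, filterByExpr, robust quasi-likelihood, all 13 libraries, a mean per group). Members outside the filter were compared by exact permutation. The members and the 16 gene lists (203 genes), written from general knowledge, were chosen with earlier results of these data known. Named genes were all members, from each list the 3 most changed DEGs per direction whose groups did not overlap (mean log2 CPM 1 or more), the whole E protein and RUNX lists, the 3 genes most like each member DEG, and *Nras* and *Trp53*. *Birc3* and *Clec1b* lie outside this rule and were picked once their values were known. Some genes that the rule names are not reported here. The alternatives tried were other filters (none, or 10 counts or more in every library), scaling by RLE or by totals alone, DESeq2 1.42.0, a fit to the compared groups alone, a replicate block, sex (read from Y-linked genes) as a term, subtraction of background reads, and removal of each mouse.

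Control and p53mut mice with the same number deviated from their group means together (correlations of 0.152 to 0.166 in 3 pairs), so a fit to these libraries with the number as a block was added after this had been seen. On simulated counts for NPmut against control (17346 genes), 149 of 200 genes changed 4-fold were recovered, with 2 false calls. At the smallest total of 12576174 counts, members near the filter rest on few counts, and intervals cover counting error only where so stated.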

Additional observations from a re-analysis of the deposited data

Results flagged for a closer look

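The log2 change of *Id2* with the Nras allele differed between mice with and without the p53 allele. It was 0.72 between NrasG12D and control mice and 2.75 between NPmut and p53mut mice, and the test of the difference itself gave 2.03 on the log2 scale (SE 0.462, adjusted p = 0.0417). *Id2* had 3.23 ± 0.945 CPM in control, 2.17 ± 0.641 in p53mut, 5.31 ± 1.07 in NrasG12D (SD, n = 3 each), and 14.5 ± 4.66 in NPmut mice (n = 4). NPmut mice alone were without pI-pC and moribund, which cannot be told apart from the joint action of the alleles. In no group of 4 mice did a member have a mouse far enough from the others to stand out by Dixon's criterion. *Ccr9* in NPmut mouse 3 came closest with a gap of 0.82 of the range, followed by *Xcr1* in NPmut mouse 1 (0.777) and *Runx2* in NPmut mouse 2 (0.775).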

How the results depend on the processing

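For the LFCs of the members, 936 values kept their direction and their side of the adjusted p threshold, 23 newly passed, 24 no longer passed, and 23 changed sign, none of them past the threshold before or after. *Siglech*, *Id2*, and *Clec9a* were called in NPmut against control mice in every fit that tested them. Requiring at least 10 counts in every library left 4 members to test and gave 2 calls against control, 1 against NrasG12D, and 1 against p53mut mice. Over the 13490 genes of that fit, calls higher and lower were 318 and 320 against control. They were 248 and 306 against NrasG12D and 287 and 310 against p53mut mice. Without a filter, NPmut mice had 6 calls against control (with *Ccr9* and *Batf3*), 4 against NrasG12D, and 5 against p53mut mice, and the interaction had 2. More genes were called in general: of 44944, 542 higher and 1026 lower against control, against 413 and 656 in the main fit. Calls were 432 and 514 against NrasG12D and 531 and 674 against p53mut mice. The interaction had 308 and 343, against 72 and 167 in the main fit. Leaving out each mouse gave 3 to 5 calls for NPmut against control, 0 to 3 against NrasG12D, 3 to 5 against p53mut, 0 to 1 for the interaction, and 0 for each single mutant, and 22 (without control mouse 3) to 55 calls over the other lists, against 48. Calls over all genes varied as well. Against control they were fewest without control mouse 3 (217 higher and 369 lower) and most without NPmut mouse 3 (494 and 758). The fewest were 143 and 301 against NrasG12D mice (without NrasG12D mouse 1) and 169 and 264 against p53mut mice (without p53mut mouse 3). For the interaction they were 6 and 55 (without control mouse 2). The most, without NPmut mouse 3, were 405 and 586, 465 and 687, and 204 and 327.

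The sign of *Tcf4* changed in NPmut against control mice without a filter (0.033) and with only these groups (0.0031), and against p53mut mice with library totals (-0.0027). Leaving out each mouse, LFCs that took both signs were those of *Tcf4* (-0.14 to 0.11 in NPmut against control, -0.054 to 0.19 against p53mut, -0.17 to 0.028 in p53mut against control, -0.21 to 0.018 in the interaction), *Runx2* (-0.20 to 0.045), *Siglech* (-1.04 to 0.17), *Clec9a* (-0.47 to 0.60), and *Ccr9* (-0.87 to 0.45) in p53mut against control, *Batf3* in NrasG12D against control (-2.04 to 0.023), and *Zbtb46* in the interaction (-0.33 to 0.076).

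With the replicate number as a block, NPmut mice had 4 member calls against NrasG12D mice in place of 2, *Siglech* and *Batf3* being added, and 6 against p53mut mice in place of 4, with *Zbtb46* and *Batf3*. Over all genes, 353 were called higher and 535 lower against NrasG12D mice, in place of 322 and 463. Against p53mut mice these were 398 and 623, in place of 382 and 551. *Batf3* also passed against control mice (2.58, adjusted p = 0.0268). NPmut mouse 4 was the only mouse of its number, so the block in effect left it out of the group differences. The added calls are thus not separate from the removal of that mouse. Without NPmut mouse 4 and without a block, *Batf3* had an LFC of 2.41 against control mice (adjusted p = 0.0698). Same-numbered mice of these groups did not all deviate together, so they share only a number. In the block on control and p53mut libraries alone, 0 of 5 members tested were called. No label pairs these mice, and that block rests only on correlations of 0.152 to 0.166 between same-numbered mice. NrasG12D and NPmut mouse 2 had a higher one, 0.294. Library totals moved the median of all genes to -0.11. Depth limits *Siglech*, *Batf3*, *Xcr1*, *Cd209a*, *Clec9a*, and *Ccr9* in control libraries, with at most 23 counts each.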
